A study of Sus scrofa with 23 samples.

Results

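Histone methyltransferases and demethylases were described in porcine oocytes and pre-implantation embryos. The 38 genes were taken from the 8603 genes of the expression table by symbol alone, as all symbols that begin with KMT, SETD, KDM, PRDM or PRMT and a number, with SUV39H, EHMT or JMJD, or that read EZH1, EZH2, NSD1, NSD2, NSD3, DOT1L, ASH1L or ASH2L. By its name the table holds differentially expressed genes, so the members had already been selected on these libraries by the authors, and 34 of the 72 symbols of these families in the gene name reference are not in the table used here. Among those not analysed here are KMT2A, SUV39H1, SUV39H2, SETDB2, EZH2, KDM4A, KDM4B, KDM4C and KDM5B. Of the 20 trimethylation enzymes that the study compares by name, 8 were among the 38.

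Histone methyltransferases place methyl groups on lysines or arginines of the histone tails, and demethylases of the KDM1 and JmjC families take them off again. Methylation of H3 lysine 4 (H3K4) and lysine 36 (H3K36) marks active genes, whereas methylation of lysine 9 (H3K9) and lysine 27 (H3K27) and of H4 lysine 20 (H4K20) marks silent or compacted chromatin. The oocyte supplies the first RNAs of these enzymes, the embryo's own genome takes over during cleavage, and in cloned embryos the marks brought in by the donor nucleus have to be rewritten.

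RNA had been measured in 23 libraries, 1 for each source and stage, each made from a small pool of oocytes or embryos. The IV-D group (8 libraries) held oocytes matured in vivo in adult Duroc sows and Duroc embryos from artificial insemination, all sired by the same boar and flushed from the sows. The NT-D group (8 libraries) held embryos cloned from a single line of ear fibroblasts of that yearling Duroc boar together with the in vitro matured oocytes, which came from slaughterhouse ovaries of hybrid sows, and the NT-LW group (7 libraries, no oocytes) held embryos cloned in the same kind of oocyte from 1 line of ear fibroblasts of a yearling Laiwu boar. The stages were embryos of 1, 2, 4 and 8 cells, the morula and 2 parts of the blastocyst, of which IT held inner cell mass with trophectoderm and TE held trophectoderm alone, both cut by hand. Clones were male and cultured in vitro, whereas each IV-D pool mixed the male and female embryos of a sow. Method, culture, sex, the source of the oocytes and, against NT-LW, breed thus cannot be told apart in any difference from IV-D.

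Depth was 14952784 to 22991067 fragments per library, and expression is given as FPKM (fragments divided by gene length and by the library total). The 8 oocyte genes present from the marker lists summed to 1168 to 4488 FPKM in the libraries from oocyte to 4-cell and to 1.1 to 6.9 FPKM in IT and TE. Between those stages the IV-D 8-cell library held 25.5 FPKM of them, the NT-D and NT-LW 8-cell libraries 205 and 265 FPKM, and the NT-D morula library 238 FPKM against 9.3 and 32.9 FPKM in IV-D and NT-LW. The 7 trophectoderm genes summed to 1261 to 2922 FPKM in IT and TE. The 5 inner cell mass genes present summed to 53.1 to 96.9 FPKM in IT and to 26.1 to 42.5 FPKM in TE. Of these, NANOG stood at 3.8 to 9.8 FPKM in IT and at 0 in TE. GATA6 stood at 34.0 to 37.7 FPKM in IT and still at 21.4 to 36.3 FPKM in TE. Of the fibroblast list, 5 of 9 genes were in the table, and they summed to 0.1 to 31.5 FPKM.

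Levels of the members ranged from 0 to 75.4 FPKM. By the mean over all libraries, NSD3 was the most abundant at 28.4 FPKM, followed by the H3K9 demethylase KDM3A at 16.8, the H3K4 demethylase KDM1A at 14.4, the arginine methyltransferase PRMT1 at 13.6 and the H4K20 methyltransferase KMT5B at 13.0 FPKM. The H3K4 methyltransferase KMT2B was the lowest, at 0.532 FPKM. The stage of the highest mean level was the 1-cell stage for 16 of the 38 members (42.1%, against 20.4% of all 8603 genes), the morula for 11 (28.9% against 19.9%) and the 4-cell stage for 7 (18.4% against 12.3%). It was the IT or TE part for 1 member, SETD9 (2.63%, against 19.7% of all genes). The NT-D 1-cell library held the highest value of 14 members, and the IV-D 2-cell library the lowest value of 10.

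**Figure D1:**
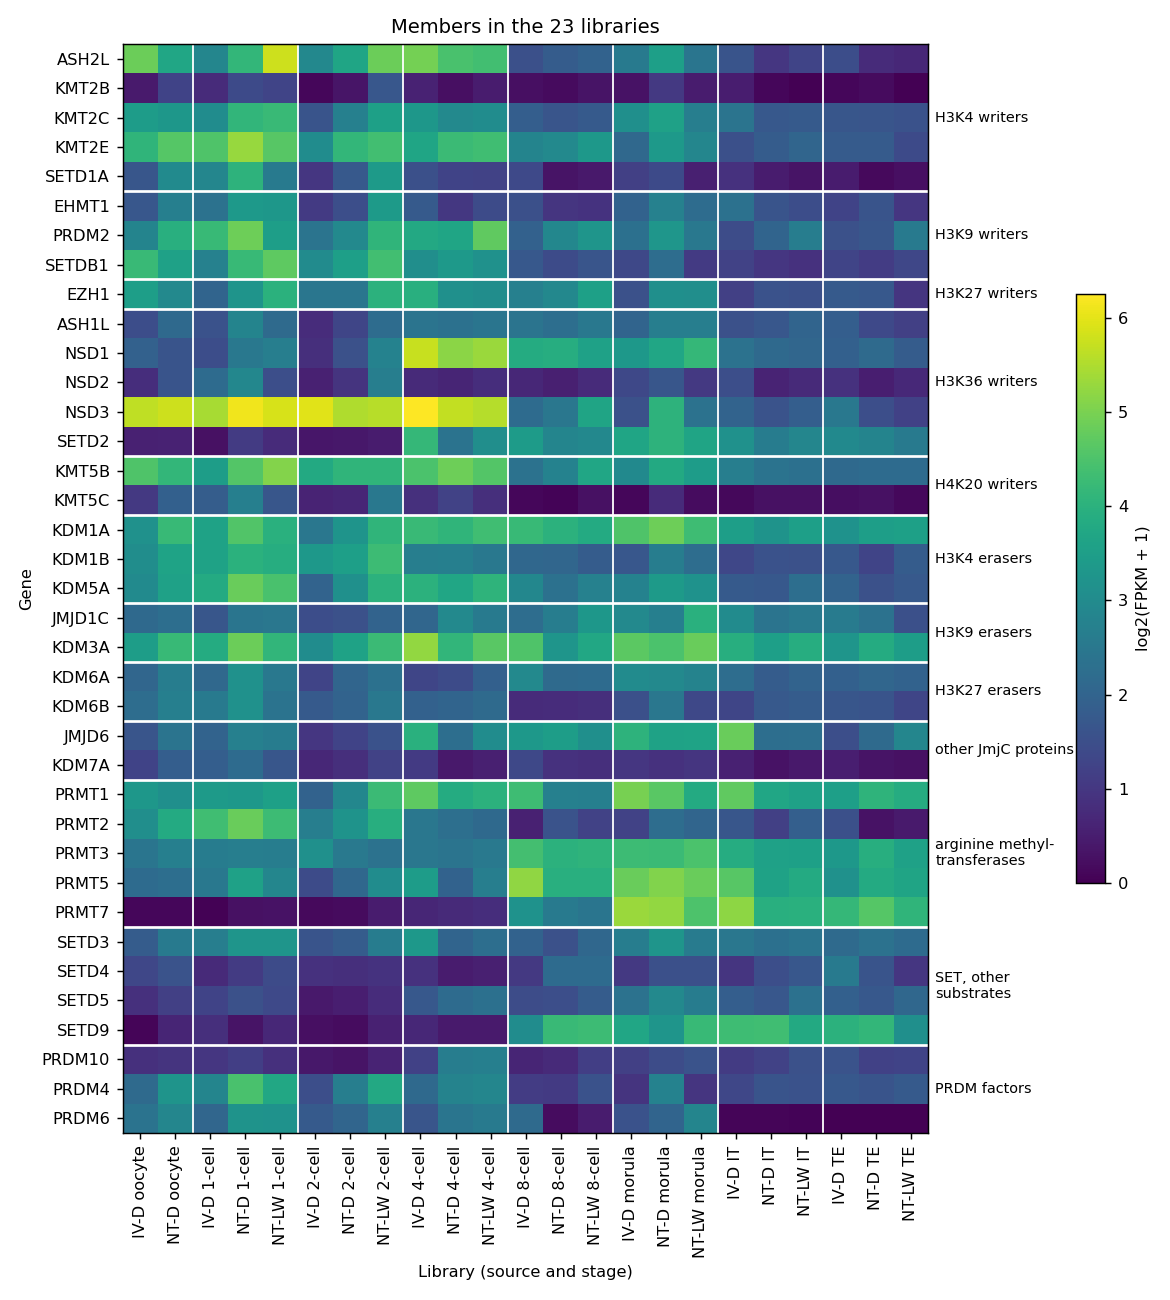
Colour gives log2(FPKM + 1) of each member named in the text (rows, grouped by role, with methyltransferases as writers and demethylases as erasers) in each of the 23 libraries (columns, ordered by stage and then by source). NSD3 and ASH2L are bright up to the 4-cell stage and dark after it, whereas SETD9, PRMT3, PRMT5 and PRMT7 are brighter from the 8-cell stage on.

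Successive stages were compared over the sources with limma on log2(FPKM + 1), where a gene counted as changed when its adjusted p was under 0.05 and its difference over 1 on the log2 scale. All 38 members passed the filter on low values. Most changes fell in the 4-cell to 8-cell step, with 14 members lower (23.8% of all 8480 genes tested were lower) and 5 higher (27.8% of all genes). From the 2-cell to the 4-cell stage 5 members rose (15% of all genes) and 1 fell (7.02% of all genes), from the 8-cell stage to the morula 3 rose (13.1%) and 0 fell (5.87%), and from the morula to IT 0 rose (4.21%) and 5 fell (10.7%).

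The median difference of the members in the 4-cell to 8-cell step was -0.65, where that of all genes was 0.14. In the 2-cell to 4-cell step it was 0.33 (all genes 0.11), in the 8-cell to morula step 0.46 (0.14) and in the morula to IT step -0.66 (-0.40). Median-ratio scaling moved the median of all genes by -0.26 in the 4-cell to 8-cell step and by 0.32 in the morula to IT step, where the members' medians became -0.92 and -0.29. In that scaling 4 members rose and 17 fell in the first of these steps, with 1811 genes higher and 2487 lower in place of 2357 and 2016, and 0 rose and 3 fell in the second, with 628 genes higher and 259 lower in place of 357 and 908. In the 2-cell to 4-cell step it called 5 members higher and 2 lower.

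In the other 3 steps limma called 0 members. In the oocyte to 1-cell step 0% of all genes were called, and 2 members had an unadjusted p under 0.05 (3.61% of all genes). In the 1-cell to 2-cell step 0.153% of all genes were called and 17 members had an unadjusted p under 0.05 (17.4% of all genes). There 36 of 38 members were below 0 (70.5% of all genes), with a median of -0.64 against -0.23. From IT to TE 0.448% of all genes were called and 0 members had an unadjusted p under 0.05 (6.91% of all genes). The voom fit on fragments recovered from the FPKM values called 0 members in each of these 3 steps as well, but without the NT-LW libraries limma called 4 in the 1-cell to 2-cell step, KMT5C, NSD2, PRDM2 and SETD1A, all lower, when it called 3.11% of all genes.

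**Figure D2:**
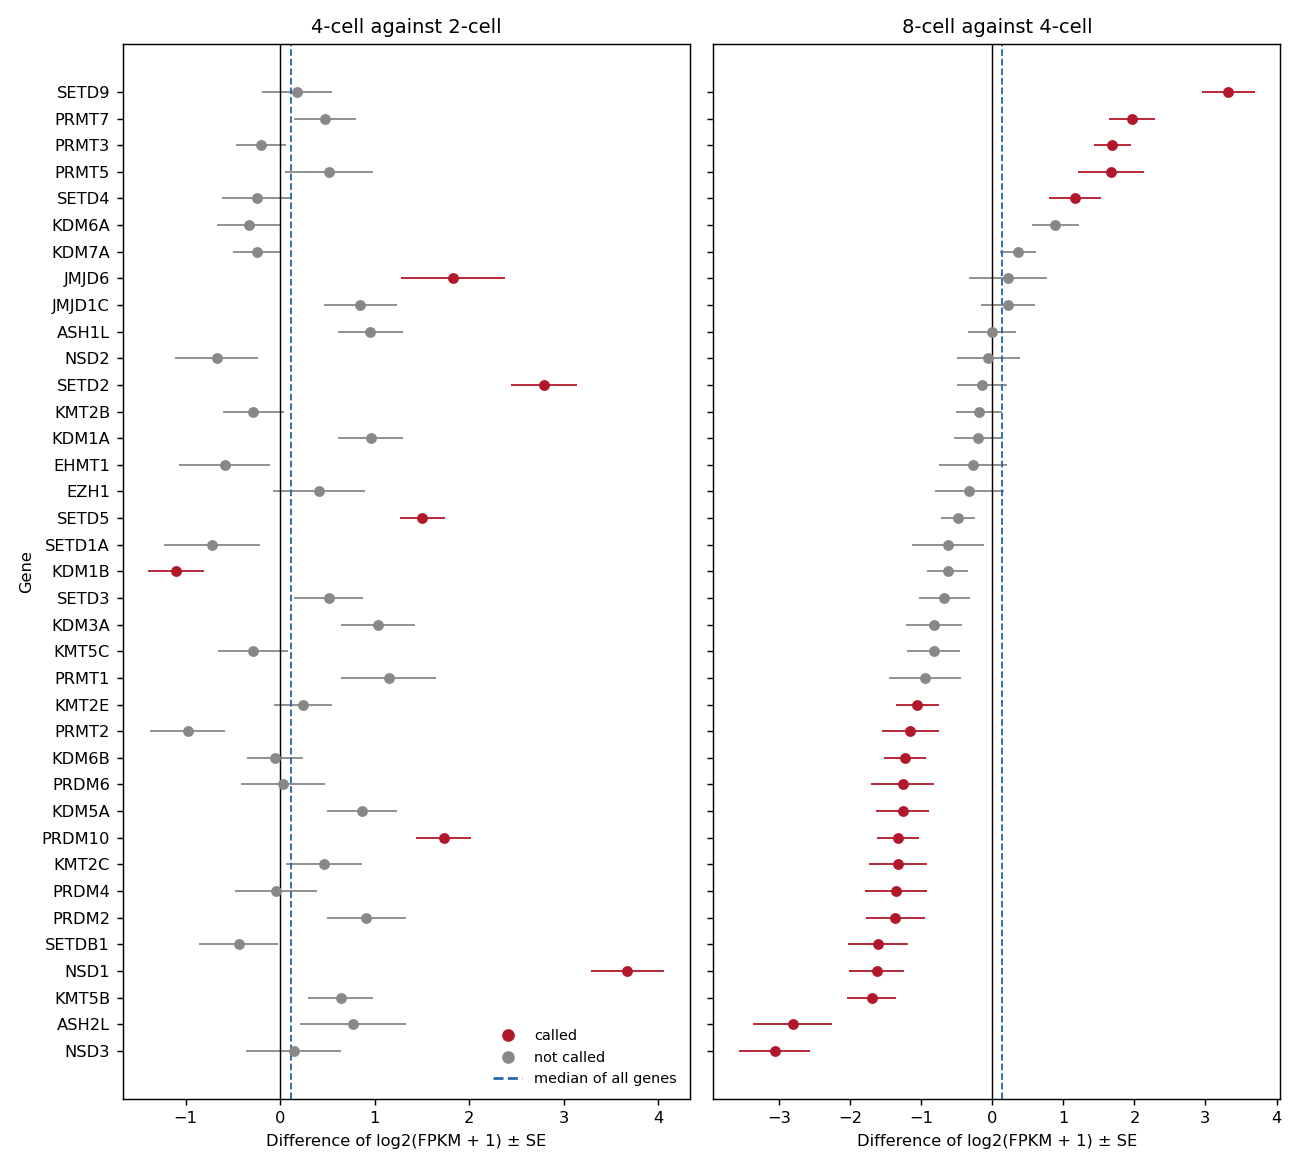
Points give the difference of log2(FPKM + 1) of each member named in the text (rows) with its SE (bars), for 4-cell against 2-cell embryos (left) and 8-cell against 4-cell embryos (right). Red points passed the test and grey points did not, and the dashed line is the median of all genes. NSD1 and SETD2 lie farthest right in the left panel at 3.67 and 2.79, and NSD3 and ASH2L lie farthest left in the right panel at -3.07 and -2.81.

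Among the methyltransferases of H3K36, NSD1 and SETD2 rose sharply at the 4-cell stage, and NSD3 fell at the 8-cell stage. NSD1 places up to 2 methyl groups on H3K36 and shares 183 exonic bases with RAB24 on the other strand. It lies on chromosome 2 (80649882 to 80810934, Sscrofa11.1). In the order IV-D, NT-D and NT-LW, which is kept for all sets of 3 values, it was at 0.803, 1.95 and 5.87 FPKM in 2-cell embryos and at 52.4, 34.8 and 38.5 FPKM in 4-cell embryos. The lowest 4-cell library thus lay above the highest 2-cell library, and the difference of 3.67 ± 0.39 (SE) on the log2 scale had an adjusted p of 6.06e-07 with limma. NSD1 fell again at the 8-cell stage, to 13.3, 13.9 and 11.0 FPKM (-1.63 ± 0.39, adjusted p = 0.00139), and from the morula to IT, where it stood at 4.16, 3.40 and 3.16 FPKM (-1.55 ± 0.39, adjusted p = 0.0126).

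SETD2, the enzyme of H3K36 trimethylation, lies on chromosome 13 (29884708 to 29996285). It was at 0.306, 0.327 and 0.390 FPKM in 2-cell embryos and at 17.0, 4.23 and 7.50 FPKM in 4-cell embryos, without overlap. The rise of 2.79 ± 0.35 had an adjusted p of 5.39e-06 with limma and was followed by 9.75, 6.19 and 6.57 FPKM at the 8-cell stage, a further difference of -0.15 ± 0.35 that did not pass the test (adjusted p = 0.736).

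Since both genes passed from low levels to high ones in the same step, the 250 bases before their RefSeq starts are shown, read on the strand of the gene from Sscrofa11.1 (NSD1 chr2:80810935-80811184, minus strand, and SETD2 chr13:29996286-29996535, minus strand). Capitals mark matches on either strand to the letters searched, which were the GC box with the letters GGGCGG, the box named for its letters CCAAT, the box of the TATA type with the letters TATAAA, the ETS core with the letters CCGGAA, the E-box with the letters CACGTG, and the core motif of NRF1.
NSD1: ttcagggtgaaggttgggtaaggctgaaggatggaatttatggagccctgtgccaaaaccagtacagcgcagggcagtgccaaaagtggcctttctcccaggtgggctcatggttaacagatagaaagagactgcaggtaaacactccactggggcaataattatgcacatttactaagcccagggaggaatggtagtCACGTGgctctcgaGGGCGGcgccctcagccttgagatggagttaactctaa
SETD2: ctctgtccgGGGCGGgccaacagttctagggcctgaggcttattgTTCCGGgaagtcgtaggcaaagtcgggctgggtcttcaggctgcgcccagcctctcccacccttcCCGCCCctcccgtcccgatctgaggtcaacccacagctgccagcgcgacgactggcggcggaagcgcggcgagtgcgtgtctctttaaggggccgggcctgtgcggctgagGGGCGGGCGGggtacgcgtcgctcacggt
Both windows held a GC box, which was found in 23 of the 36 members with a window (63.9%) and in 45.9% of all 19556 gene windows of the same length, and the last capitals of SETD2 are a pair of overlapping ones. The E-box of NSD1 was found in 5 of 36 members (13.9% against 6.39% of windows) and the ETS core of SETD2 in 8 of 36 (22.2% against 13.6%). The other letters were found in 30.6% against 31.9% (CCAAT), 2.78% against 9.77% (TATAAA) and 0% against 0.757% (NRF1 core). G and C made up 51.6% of the NSD1 window and 68.8% of that of SETD2, with a median of 61.8% over the members and 57.6% over all windows. The window of SETD2 lies in the gene LOC110256227 on the other strand, with which its exons share 254 bases, so reads of that pair could be told apart only if the counting used strand, which is not given in the sources used here.

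NSD3, a relative of NSD1, was the most abundant member before the 8-cell stage, and shares 114 exonic bases with DDHD2 on the other strand. It stood between 42.0 and 75.4 FPKM in all 11 libraries up to 4-cell embryos, with 75.4, 50.5 and 46.5 FPKM in 4-cell embryos. In 8-cell embryos it was at 3.58, 4.58 and 11.5 FPKM, far below every earlier library. This fall of 3.07 ± 0.50 on the log2 scale had an adjusted p of 4.24e-05 with limma. In the NT-D morula it stood at 15.6 FPKM, against 1.92 in IV-D and 4.10 FPKM in NT-LW, and it ended at 1.29 to 4.68 FPKM in IT and TE. The other 2 genes of the group, ASH1L (0.743 to 6.01 FPKM) and NSD2 (0.429 to 6.46 FPKM), did not pass in these steps, although ASH1L had an adjusted p of 0.0451 in the 2-cell to 4-cell step at a difference of 0.96.

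**Figure D3:**
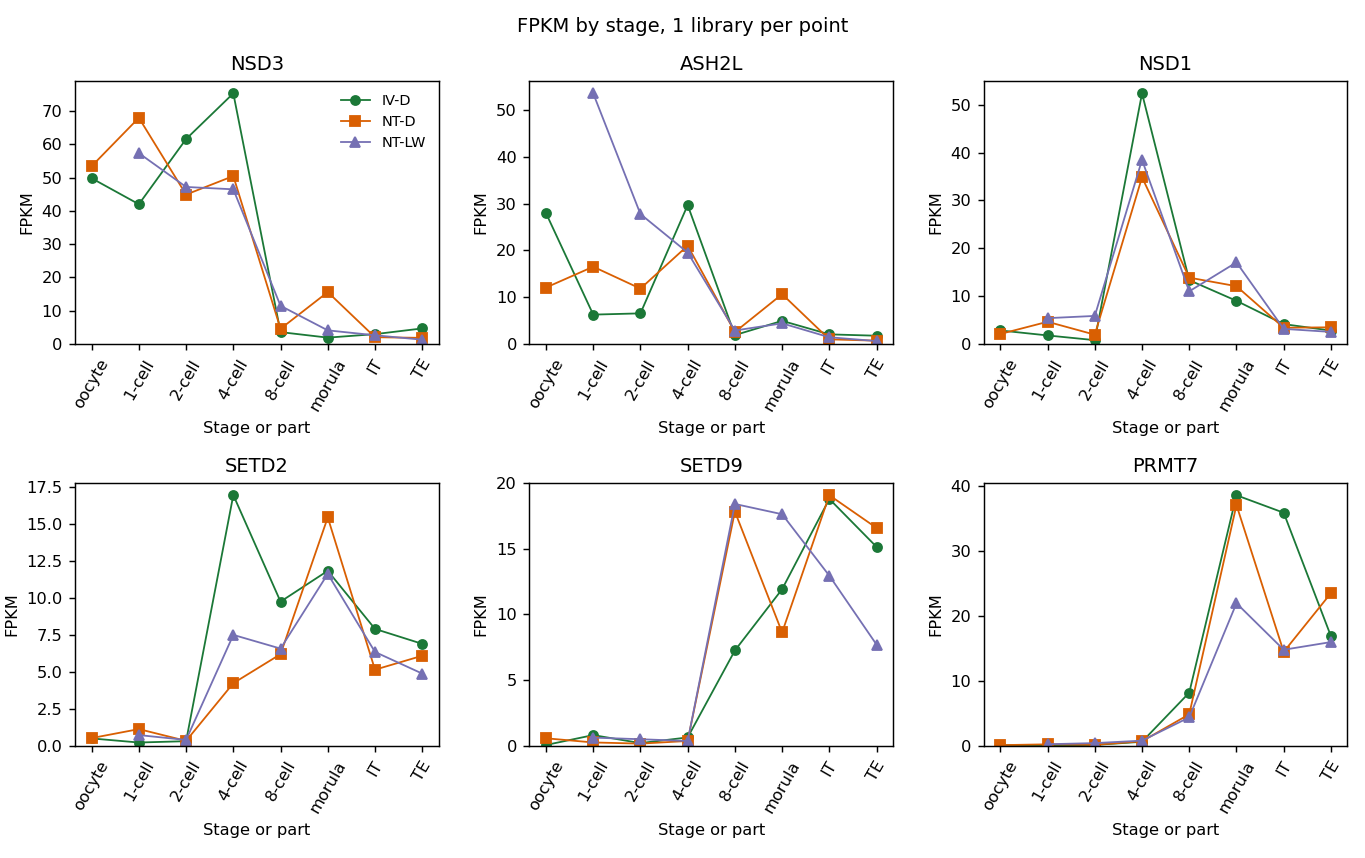
FPKM (y axis, linear, separate for each gene) by stage or blastocyst part (x axis), with 1 point per library and lines joining the libraries of a source. NSD3 and ASH2L drop after the 4-cell stage, NSD1 peaks at the 4-cell stage at 34.8 to 52.4 FPKM, SETD2 starts there, SETD9 starts at the 8-cell stage and PRMT7 climbs from the 8-cell stage to the morula.

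Of the 5 genes of H3K4 methylation, 3 fell in the 4-cell to 8-cell step and 0 rose. ASH2L, a core subunit that the H3K4 methyltransferase complexes share and no enzyme by itself, lies on chromosome 15 (48386426 to 48417560) near NSD3 (48119132 to 48245673). It was at 29.7, 21.01 and 19.5 FPKM in 4-cell embryos and at 1.90, 2.55 and 2.88 FPKM in 8-cell embryos, a fall of 2.81 ± 0.56 (adjusted p = 0.000285 with limma). At the 1-cell stage its libraries were far apart, with 6.28, 16.5 and 53.5 FPKM.

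KMT2C, which places single methyl groups on H3K4 at enhancers, was at 8.91, 6.67 and 7.30 FPKM in 4-cell embryos, at 2.67, 2.14 and 2.44 FPKM in 8-cell embryos and at 7.65, 11.0 and 5.43 FPKM in morulae. It fell and then rose again, by -1.33 ± 0.40 (adjusted p = 0.00829) and 1.36 ± 0.40 (adjusted p = 0.022), without overlap of the libraries in either step. KMT2E, a SET protein that binds trimethylated H3K4, fell from 11.9, 18.1 and 19.1 FPKM to 6.05, 6.70 and 9.13 FPKM (-1.06 ± 0.30, adjusted p = 0.00586). Its exons share 394 bases with a gene on the other strand. KMT2B (0.00807 to 2.27 FPKM) and SETD1A (0.124 to 15.5 FPKM), catalytic subunits of such complexes, did not pass in any step.

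Of the 6 methyltransferases of H3K9, H4K20 and H3K27, 3 fell at the 8-cell stage and 0 rose. SETDB1, an enzyme of H3K9 trimethylation, was at 7.58, 9.22 and 8.04 FPKM in 4-cell embryos and at 2.29, 1.69 and 2.16 FPKM in 8-cell embryos, and this fall of 1.61 ± 0.42 had an adjusted p of 0.0028 with limma. PRDM2, also assigned to H3K9, went from 12.8, 11.7 and 25.4 FPKM to 2.83, 6.40 and 8.52 FPKM (-1.37 ± 0.42, adjusted p = 0.00862). EHMT1, a methyltransferase of single and double H3K9 methylation, did not pass and ranged from 0.877 to 9.63 FPKM. SETDB1 shares 704 exonic bases with CERS2 on the other strand.

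KMT5B, which adds methyl groups to H4K20, was at 21.4, 28.1 and 22.9 FPKM in 4-cell embryos. It fell to 4.14, 5.89 and 11.9 FPKM at the 8-cell stage (-1.70 ± 0.34, adjusted p = 0.00035 with limma), with the NT-LW library the highest. Its relative KMT5C stayed between 0.0455 and 5.48 FPKM and did not pass in any step. EZH1, a catalytic subunit of the Polycomb complex PRC2 and the only H3K27 methyltransferase among the members, was at 14.4, 7.86 and 7.42 FPKM in 4-cell, 5.64, 6.51 and 10.7 FPKM in 8-cell embryos and 1.94, 7.61 and 7.55 FPKM in morulae. None of its steps passed, with -0.33 ± 0.48 in the 4-cell to 8-cell step and -1.15 ± 0.48 (adjusted p = 0.101) from the morula to IT.

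Among the demethylases, 1 of 3 genes of H3K4, 1 of 2 of H3K27 and 0 of 2 of H3K9 passed at the 8-cell stage, both of them lower. KDM5A, which removes methyl groups from trimethylated H3K4, was at 15.1, 11.99 and 15.7 FPKM in 4-cell, 6.42, 4.03 and 5.74 FPKM in 8-cell embryos, 5.89, 9.63 and 8.13 FPKM in morulae and 2.41, 2.29 and 3.77 FPKM in IT. It fell at the first and the last of these steps (-1.26 ± 0.37, adjusted p = 0.00646, and -1.22 ± 0.37, adjusted p = 0.0318). KDM6B, a demethylase of H3K27, fell from 2.84, 3.03 and 3.44 FPKM to 0.698, 0.743 and 0.801 FPKM (-1.23 ± 0.29, adjusted p = 0.00141). Its X-linked relative KDM6A was at 1.47, 1.68 and 2.78 FPKM in 4-cell and at 6.76, 3.47 and 3.57 FPKM in 8-cell embryos, a difference of 0.89 ± 0.34 with an adjusted p of 0.0293 that was below the limit of 1.

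KDM1B, a demethylase of H3K4 known from the setting of imprints in oocytes, was the only member that fell at the 4-cell stage. It was at 9.01, 10.6 and 18.6 FPKM in 2-cell embryos and at 5.36, 5.45 and 4.67 FPKM in 4-cell embryos (-1.10 ± 0.29, adjusted p = 0.00891 with limma). The call was lost without the NT-D libraries (adjusted p = 0.099) and without the NT-LW libraries (adjusted p = 0.211), and KDM1B shares 1351 exonic bases with DEK on the other strand. KDM1A, the other flavin-dependent demethylase of H3K4, was at 4.59 to 28.2 FPKM in all libraries and passed only from the morula (22.2, 28.2 and 18.7 FPKM) to IT (10.4, 8.27 and 10.5 FPKM), by -1.15 ± 0.34 (adjusted p = 0.0297).

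KDM3A, a demethylase of single and double H3K9 methylation, was at 36.7, 16.4 and 24.1 FPKM in 4-cell, 22.2, 8.59 and 12.4 FPKM in 8-cell embryos and 24.8, 21.2 and 27.3 FPKM in morulae, and passed in no step. The related JMJD1C ranged from 1.80 to 14.7 FPKM and KDM7A, a JmjC demethylase, from 0.223 to 3.58 FPKM, again with no step that passed. JMJD6, a JmjC protein that hydroxylates lysines of splicing factors, rose at the 4-cell stage from 0.977, 1.38 and 1.96 FPKM to 14.7, 3.78 and 7.28 FPKM (1.83 ± 0.55, adjusted p = 0.019 with limma). The increase was 2.99 within IV-D, 1.01 within NT-D and 1.49 within NT-LW, and the call was lost without NT-D or without NT-LW, at the highest with an adjusted p of 0.077.

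Of the 5 arginine methyltransferases, 3 rose and 1 fell at the 8-cell stage. PRMT7, which places single methyl groups on arginine, was at 0.0187 to 0.777 FPKM in all 11 libraries up to the 4-cell stage. It rose to 8.16, 4.83 and 4.36 FPKM in 8-cell embryos (1.97 ± 0.33, adjusted p = 4.82e-05 with limma) and to 38.5, 37.0 and 21.9 FPKM in morulae (2.30 ± 0.33, adjusted p = 8.52e-05). Each of these sets of libraries lay above the one before it. The exons of PRMT7 share up to 386 bases with genes on the other strand, SLC7A6OS and SMPD3.

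PRMT3, known for methylating a ribosomal protein, rose from 4.60, 4.28 and 4.77 FPKM to 19.98, 15.3 and 15.8 FPKM at the 8-cell stage (1.69 ± 0.26, adjusted p = 2.49e-05). PRMT5, the main enzyme of symmetric arginine dimethylation, rose from 9.93, 2.90 and 5.41 FPKM to 36.02, 14.4 and 14.3 FPKM (1.67 ± 0.46, adjusted p = 0.00457), with the IV-D library the highest on both sides. PRMT1, the main enzyme of asymmetric dimethylation, was at 25.2, 13.5 and 15.2 FPKM in 4-cell and at 18.8, 5.66 and 5.46 FPKM in 8-cell embryos (-0.95 ± 0.50, adjusted p = 0.11). PRMT2 was the member of this family that fell, from 4.57, 3.84 and 3.41 FPKM to 0.493, 2.05 and 1.36 FPKM (-1.16 ± 0.40, adjusted p = 0.0175).

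Among the SET proteins with other or little known substrates, SETD9 was close to absent before the 8-cell stage and rose more than any other member at that step. It was at 0.0535 to 0.807 FPKM in the 11 earlier libraries and at 7.24, 17.8 and 18.4 FPKM in 8-cell embryos, a difference of 3.32 ± 0.37 (adjusted p = 6.88e-07 with limma). It then stayed between 7.69 and 19.1 FPKM through IT and TE. SETD9 lies on chromosome 16 (35978960 to 35987161), and the 250 bases before its RefSeq start are shown for contrast with the windows of NSD1 and SETD2 (chr16:35978710-35978959, plus strand, capitals as before).
SETD9: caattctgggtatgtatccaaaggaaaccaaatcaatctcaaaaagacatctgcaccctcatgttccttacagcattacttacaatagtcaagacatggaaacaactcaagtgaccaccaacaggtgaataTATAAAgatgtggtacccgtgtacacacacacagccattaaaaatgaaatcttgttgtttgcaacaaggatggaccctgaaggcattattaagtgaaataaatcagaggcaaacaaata
It held the only TATAAA among the members' windows and no GC box, and G and C made up 37.6% of it. The TATAAA lies near the middle of the window and not close to the start of the gene. Only letters were matched, and whether this site is used was not tested.

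SETD5, a chromatin-bound SET protein, rose at the 4-cell stage from 0.334, 0.448 and 0.722 FPKM to 2.32, 3.59 and 3.99 FPKM (1.51 ± 0.24, adjusted p = 8.72e-05 with limma). It rose again from the 8-cell stage, with 1.76, 1.85 and 2.52 FPKM, to the morula, with 4.12, 6.71 and 5.18 FPKM (1.05 ± 0.24, adjusted p = 0.00446). SETD4 rose from 0.863, 0.403 and 0.453 FPKM to 1.05, 3.53 and 3.55 FPKM at the 8-cell stage (1.16 ± 0.37, adjusted p = 0.0109), of which only 0.14 was found within IV-D against 1.69 within NT-D and 1.65 within NT-LW. SETD3, which methylates actin, ranged from 1.91 to 9.01 FPKM and passed in no step.

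The zinc finger factors PRDM4, PRDM6 and PRDM10, which carry a domain related to the SET domain, all fell at the 8-cell stage. PRDM10 rose at the 4-cell stage from 0.329, 0.260 and 0.534 FPKM to 1.33, 5.23 and 5.44 FPKM (1.73 ± 0.29, adjusted p = 0.000178) and fell back at the 8-cell stage to 0.567, 0.678 and 1.25 FPKM (-1.33 ± 0.29, adjusted p = 0.000775). PRDM4 fell from 3.41, 5.92 and 6.35 FPKM to 1.17, 1.08 and 1.98 FPKM at the 8-cell stage (-1.35 ± 0.44, adjusted p = 0.0122).

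PRDM6 was at 1.98, 3.05 and 6.18 FPKM in morulae and nearly gone in the blastocyst, with 0.0602, 0.0551 and 0.0362 FPKM in IT and 0 in all 3 TE libraries (-2.07 ± 0.44 from the morula to IT, adjusted p = 0.00527). IT held 8 fragments of it in sum and the morulae 535, a ratio at equal depth of 72.1 (exact 95% interval 36.3 to 168, counting error only), and the morulae were at least 149-fold higher than TE, counted against a floor of 3 fragments over the 3 TE libraries. At the 8-cell stage PRDM6 fell as well (-1.26 ± 0.44, adjusted p = 0.0199), although the difference was 0.50 within IV-D, -2.20 within NT-D and -2.09 within NT-LW. In pools of whole embryos or embryo parts, fewer cells of a type and less RNA per cell cannot be told apart.

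Without the NT-D libraries 9 of the 19 members still passed in the 4-cell to 8-cell step, ASH2L, KDM6B, KMT5B, NSD1, NSD3, PRDM2, PRMT3, PRMT7 and SETD9, where the share of all genes called was 38.6% in place of 51.6%. The calls of SETDB1, PRMT2, PRMT5, KMT2C, KMT2E, KDM5A, PRDM4, PRDM6, PRDM10 and SETD4 were lost. Without IV-D those of PRDM2 and PRMT2 were lost in this step, and without NT-LW those of PRMT2, PRDM6 and SETD4. The call of PRMT2 thus held in none of these runs. In the 8-cell to morula step 8 members passed without IV-D (26.5% of all genes) and 0 without NT-D (1.57%). In the morula to IT step 14 passed without IV-D (28.99% of all genes), 0 without NT-D (0.283%) and 0 without NT-LW (0.861%). The counts over all genes thus moved in the same direction as those of the members. Median-ratio scaling ended the calls of KDM1A and KDM5A into IT, of SETD5 into the morula and of SETD4 in 8-cell embryos.

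Clones were then compared with in vivo embryos. Over the 7 stages from the 1-cell embryo on, limma called 0 members (0.354% of all genes were called at an adjusted p under 0.05) and voom called 0. With limma, 4 members had an unadjusted p under 0.05, as did 19.7% of all genes. These 4 were PRDM4 (0.72 higher in clones), PRDM2 (0.67), KMT2E (0.54) and KMT5B (0.45), and the members' median was 0.21 against 0.11 for all genes. Between the breeds, NT-LW against NT-D, limma and voom called 0 members (0.0118% of all genes by limma), and 0 had an unadjusted p under 0.05 (1.95% of all genes).

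At single stages the 1 IV-D library was taken to vary like the pair of clone libraries, and all 7 comparisons use an IV-D library that both clone groups share. Limma called 0 members in 1-cell embryos (0.908% of all genes), 0 in 2-cell embryos (0.307%), 0 in morulae (0.778%) and 0 in TE (0.33%), and voom also called 0. At these stages 9, 13, 3 and 3 members had an unadjusted p under 0.05 with limma, beside 19.2%, 18.0%, 13.1% and 6.83% of all genes. Limma called 1 in 4-cell embryos (5.11%), 2 in 8-cell embryos (11.6%) and 1 in IT (4.81%). At each of the latter 3 stages the share of members called was below that of all genes.

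At the 1-cell stage 36 of 38 members were higher in the clones (70.0% of all genes), with a median of 0.61 against 0.27. ASH2L had the largest difference, with 16.5 and 53.5 FPKM in the clones and 6.28 FPKM in IV-D (2.09 ± 0.64, adjusted p = 0.119), and SETDB1 followed with 17.5 and 25.2 against 5.67 FPKM (1.72 ± 0.49, adjusted p = 0.103). Neither passed the test. Median-ratio scaling left 28 of 38 members above 0 (54.8% of all genes), with a median of 0.34 against 0.05. The 5 fibroblast markers summed to 25.70 FPKM in the IV-D 1-cell library, 27.04 FPKM in NT-D and 16.02 FPKM in NT-LW. A high sum was thus not limited to clones at this stage, and its part in the result was not tested.

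At the 2-cell stage the same count, 36 of 38, was higher in the clones (75.3% of all genes), with a median of 0.89 against 0.35. PRDM4 was at 5.39 and 12.6 FPKM in the clones and at 1.81 FPKM in IV-D (1.73 ± 0.64, adjusted p = 0.229), and KDM5A at 7.83 and 15.2 against 2.99 FPKM (1.59 ± 0.43, adjusted p = 0.16). The members' median level was 1.94 FPKM in IV-D, 3.11 in NT-D and 6.55 in NT-LW, and that of all genes 3.37, 4.49 and 7.19 FPKM. The oocyte markers summed to 1966, 2488 and 3847 FPKM in the same libraries and the 5 fibroblast markers to 3.1, 16.2 and 19.2 FPKM, with COL1A2 at 1.4, 9.6 and 9.2 FPKM, and their part in the result was not tested. Without the NT-D library 12 members were called, all higher in NT-LW, among 11.7% of all genes, and median-ratio scaling left 30 of 38 members above 0 with a median of 0.47 against 0.06.

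At the 4-cell stage PRDM10 was higher in the clones, at 5.23 and 5.44 FPKM against 1.33 FPKM in IV-D (1.45 ± 0.33, adjusted p = 0.024 with limma). With SETD2 the clones lay on the other side, at 4.23 and 7.50 FPKM against 17.0 FPKM, but the difference of -1.43 ± 0.39 had an adjusted p of 0.0516. The call of PRDM10 was lost without NT-D (adjusted p = 0.0858), without NT-LW (0.0717), with a pseudocount of 0.1 (0.104) and with voom (0.106), and 0 members were called without NT-D. The fibroblast markers summed to 31.5 and 30.6 FPKM in the clones and 5.5 FPKM in IV-D. COL1A2 among them stood at 14.5 and 15.1 against 1.0 FPKM. At the 1-cell stage the sum had not been higher in both clone libraries than in IV-D. The part of these markers in the result was not tested.

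At the 8-cell stage PRDM6 was lower in the clones, at 0.161 and 0.381 FPKM against 3.49 FPKM in IV-D (-1.82 ± 0.40, adjusted p = 0.0117 with limma). Between these 2 stages, 4-cell and 8-cell, it had gone from 2.16 to 3.49 FPKM in IV-D, from 4.35 to 0.161 in NT-D and from 4.86 to 0.381 FPKM in NT-LW. SETD4 was higher in the clones, at 3.53 and 3.55 against 1.05 FPKM (1.15 ± 0.33, adjusted p = 0.0429). Without NT-D both calls were lost (adjusted p = 0.0502 and 0.103), and SETD4 was also lost without NT-LW (0.138), with a pseudocount of 0.1 (0.0926), with voom (0.112) and with breed as a term (0.0568). The sum of oocyte markers was higher in the 8-cell clones (205 and 265 against 25.5 FPKM), as SETD4 was, whereas PRDM6 was lower there. The part of this sum in these differences was not tested.

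PRMT1 and PRMT5 were the next in line at the 8-cell stage. PRMT1 was at 5.66 and 5.46 FPKM in the clones and 18.8 FPKM in IV-D (-1.59 ± 0.50, adjusted p = 0.0561), and PRMT5 at 14.4 and 14.3 against 36.02 FPKM (-1.27 ± 0.46, adjusted p = 0.0956). Neither passed. In morulae the largest difference was that of NSD3, at 15.6 and 4.10 FPKM in the clones and 1.92 FPKM in IV-D (1.66 ± 0.59, adjusted p = 0.241), which passed without NT-LW, when 1 member and 8.05% of all genes were called, and in the NT-D morula the oocyte markers were also highest.

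In IT, JMJD6 was lower in the clones, at 3.81 and 3.86 FPKM against 27.4 FPKM in IV-D (-2.55 ± 0.42, adjusted p = 0.00515 with limma). The direction held in every alternative run, with differences of -2.83 to -2.53. All of these runs kept the single IV-D IT library, so they cannot show how far the difference rests on it. PRMT7 was at 14.4 and 14.8 FPKM in the clones and 35.8 FPKM in IV-D (-1.24 ± 0.39, adjusted p = 0.0936). The 5 inner cell mass markers summed to 96.9 FPKM in IV-D and to 53.1 and 55.5 FPKM in the clones. Within this list PDGFRA was at 11.6 against 1.7 and 2.2 FPKM, and GATA6 at 37.7 against 34.0 and 37.4 FPKM. The trophectoderm markers summed to 1424 against 1261 and 1737 FPKM. The part of these marker levels in the result was not tested.

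**Figure D4:**
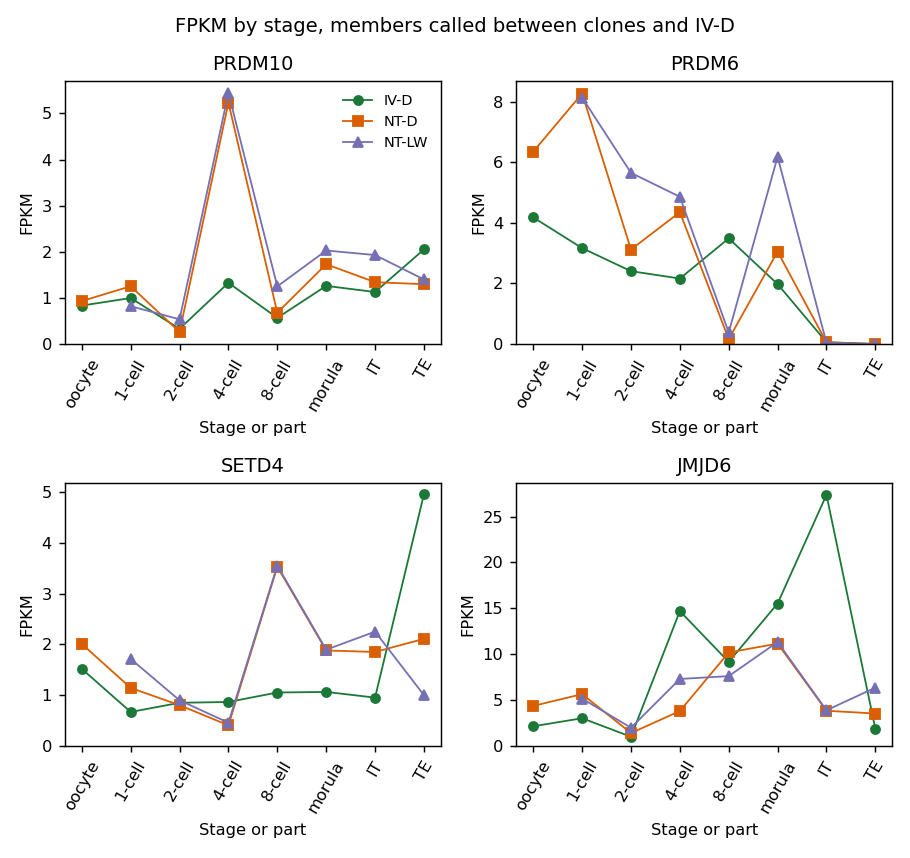
FPKM (y axis, linear, separate for each gene) by stage or blastocyst part (x axis) for the 4 members that passed between clones and IV-D at a single stage, with 1 point per library. The 2 clone groups lie together and away from IV-D at the 4-cell stage for PRDM10, the 8-cell stage for PRDM6 and SETD4, and IT for JMJD6 (3.81 and 3.86 against 27.4 FPKM).

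The oocytes matured in vitro and in vivo were compared without replicates, by a difference over 1 on the log2 scale and at least 1 FPKM in 1 of them. By this rule 5 members were higher in vitro (10.5% of all 8603 genes) and 1 lower (1.19%). SETD1A was at 7.01 against 2.17 FPKM, PRDM2 at 14.5 against 6.05, PRDM4 at 8.42 against 3.49, KDM1A at 17.7 against 7.95 and EHMT1 at 5.50 against 2.22 FPKM, all higher in vitro. ASH2L was lower, at 12.1 against 28.0 FPKM. Median-ratio scaling left only 1 member higher and 1 lower by the same rule, and a pseudocount of 0.1 gave 10 in all. The members' median difference was 0.51 against 0.15 for all genes, and the oocyte markers summed to 3938 FPKM in vitro and 2851 FPKM in vivo.

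Partners of these enzymes were read from lists of complex subunits and readers, of which 37 of 62 genes were in the table. In the 2-cell to 4-cell step 8 rose and 5 fell, in the 4-cell to 8-cell step 13 rose and 4 fell, in the 8-cell to morula step 1 rose and 0 fell, and in the last of these, from the morula to IT, 0 did and 6 fell. Over all genes the shares that rose and fell were 15% and 7.02%, 27.8% and 23.8%, 13.1% and 5.87%, and 4.21% and 10.7% in these 4 steps. Of the 6 subunits of PRC2, the H3K27 methyltransferase complex, 3 rose at each of the first 2 of these steps. EED, which binds trimethylated H3K27 within it, went from 1.3, 1.1 and 0.8 FPKM to 45.4, 19.0 and 23.7 FPKM and then to 240, 381 and 320 FPKM (3.79 ± 0.36, adjusted p = 1.53e-07, and 3.44 ± 0.36, adjusted p = 2.79e-07, with limma), while EZH1 passed in neither step.

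AEBP2, another subunit of PRC2, rose at both steps (1.54 ± 0.35 and 3.03 ± 0.35), whereas PHF19 fell at the second (-2.05 ± 0.48). Among the 8 subunits of the H3K4 complexes, 3 rose and 2 fell in the 4-cell to 8-cell step, with a median difference of 0.23. The 2 that fell were RBBP5 and PSIP1. RBBP5, the partner of ASH2L, went from 43.8, 32.7 and 29.7 FPKM in 4-cell to 5.0, 4.8 and 9.0 FPKM in 8-cell embryos (-2.35 ± 0.35). PSIP1 fell in the same step (-3.39 ± 0.48) and into IT (-1.95 ± 0.48). DPY30 of these complexes fell in 4-cell embryos (-2.45 ± 0.48), to 99.4, 122 and 82.0 FPKM, and stood at 246, 359 and 434 FPKM in 8-cell embryos. The heterochromatin protein CBX5 rose in 4-cell embryos (1.39 ± 0.36), while PCGF6 of the Polycomb complex PRC1 and PPHLN1 fell there (-1.48 ± 0.42 and -1.31 ± 0.28). RIOX2 rose in 8-cell embryos (2.55 ± 0.32), JARID2 of PRC2 rose into the morula (1.77 ± 0.30), and PPHLN1 and TASOR, which silence genes together, fell into IT (-1.25 ± 0.28 and -1.22 ± 0.33). WDR77 and CLNS1A, which work with PRMT5, are named after their values were seen, and both rose in 8-cell embryos (2.49 ± 0.39 and 2.12 ± 0.27).

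Between clones and IV-D, limma called PCGF6 in 4-cell embryos (-2.02 ± 0.38, adjusted p = 0.0106), CBX5 and BMI1 in 8-cell embryos (1.61 ± 0.41, adjusted p = 0.0242, and 1.18 ± 0.35, adjusted p = 0.0445) and WDR5 in IT (-1.73 ± 0.43, adjusted p = 0.0354). It called 0 partners at the other 4 stages.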

How the data were processed

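RNA was measured in 23 libraries of oocytes and embryos. The authors amplified cDNA from small pools with SMART-Seq v4, aligned the reads with HISAT2 and counted them with HTSeq against Sscrofa11.1, and deposited 1 table of FPKM values, by its name of differentially expressed genes. The rule by which genes entered the table and the use of strand in counting are not given in the sources used here.

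The labels give 1 library for each source and stage, so the replicates of a stage are the sources and p-values measure only the spread between these libraries. Whole fragments were recovered from the FPKM steps for 8600 of 8603 genes (99.97%), with 14952784 to 22991067 fragments per library, and intervals cover counting error only. Values were tested as log2(FPKM + 1) with limma 3.58.1 in R 4.3.3, with Benjamini-Hochberg adjustment over all genes with at least 1 FPKM in at least 3 libraries (8480 genes). Fold changes on this scale understate the change of low genes. Stage steps were fitted with stage and source as terms (13 residual df). Clones against IV-D over stages, and NT-LW against NT-D, were fitted without the oocytes (12 residual df, adjusted p under 0.05). Clones against IV-D at a stage used 1 mean for each stage and method (7 residual df). Stage steps and stage comparisons also required a difference over 1. Named genes were, in each comparison, the up to 5 called members with the largest rise and the up to 5 with the largest fall, the study's trimethylation enzymes, the 5 members with the highest mean FPKM, the oocyte genes past the fold rule and up to 3 partners in each direction at a step. All other members and values are named only to account for the 38 as far as they are shown, chosen after their values were seen, and 1 member is counted but not reported by name here. Members and lists were chosen with earlier results of these data known. Windows were read from the RefSeq annotation of Sscrofa11.1, and 36 of 38 members had one. Alternatives were a pseudocount of 0.1, no filter, median-ratio scaling, voom on the recovered fragments, leaving out each library or source and, added after seeing the data, breed as a term. Summaries were made with Python 3.11.15 and pandas 2.3.3.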

Additional observations from a re-analysis of the deposited data

Results flagged for a closer look

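The difference between clones and IV-D varied over the 7 stages for 2 members by limma's F test of the interaction, JMJD6 (adjusted p = 0.0222) and PRDM6 (adjusted p = 0.0428), among 618 of 8480 genes (7.29%) with such a difference. JMJD6 stood lower in the clones in IT, at 3.81 and 3.86 FPKM against 27.4 FPKM, and higher in TE, at 3.51 and 6.33 FPKM against 1.84 FPKM. PRDM6 stood at 0.161 and 0.381 FPKM in 8-cell clones against 3.49 FPKM in IV-D, and at 4.35 and 4.86 FPKM in 4-cell clones against 2.16 FPKM. A total of 8 members had an unadjusted p under 0.05, of which SETD4 was next with an adjusted p of 0.0562. The IV-D value at each stage is 1 library, and its part in these differences was not tested.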

How the results depend on the processing

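Stage steps had source as a term, so the libraries of a source were set against each other there. Apart from this, no paired analysis was possible because the labels give 1 library for each source and stage and no replicates that share a number. For the up to 5 called members with the largest change in each direction of a comparison, 28 results were followed. Of their 196 alternative values 161 kept their direction and their call, 35 kept the direction but lost the call, and 0 reversed. Other calls given above are not in this count, among them those of KDM5A, KMT2C, KMT2E and PRMT2 at the 8-cell stage. The count of members called in the 8-cell to morula step was 5 with a pseudocount of 0.1 and 5 with voom, against 3. In the morula to IT step it was 3 with median-ratio scaling and 8 with voom, against 5. Between clones and IV-D it was 0 (pseudocount 0.1), 2 (no filter) and 2 (median-ratio scaling) at the 4-cell stage, against 1, and 1 each with a pseudocount of 0.1, with voom and with breed as a term at the 8-cell stage, against 2. Between the oocytes it was 10 with a pseudocount of 0.1 and 2 with median-ratio scaling, against 6. Leaving out 1 library or source gave 0 to 4 members in the 1-cell to 2-cell step (4 without NT-LW), 4 to 7 in the 2-cell to 4-cell step, 9 to 18 in the 4-cell to 8-cell step (9 without NT-D), 0 to 8 in the 8-cell to morula step (0 without NT-D, 8 without IV-D) and 0 to 14 in the morula to IT step (14 without IV-D, 0 without NT-D or without NT-LW). Between clones and IV-D it gave 0 to 12 at the 2-cell stage (12 without NT-D), and 0 to 1 at each of the 4-cell and 8-cell stages and in morulae (0 without NT-D in each, 1 without NT-LW). The cause of these shifts was not tested. With 1 library per source and stage, the difference between clones and IV-D at a stage rests on a single in vivo library, and the table holds only genes the authors had selected.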
